A study of Mus musculus with 12 samples.

Results

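The 50 genes described here act in DNA replication (S phase) or in the G2 phase and mitosis (G2/M), and they mark cells that are dividing. They were listed by name, by their known roles, and all 50 are among the 18879 genes of the deposited matrix. The S list holds 19 of them, the G2/M list holds 29, and the D cyclins Ccnd1 and Ccnd2, which act in G1, belong to neither list.

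Single cells came from the prefrontal cortex of newborn mice, labelled C57BL/6J, at postnatal day 0, with 3 genotypes of Myt1l, a zinc finger transcription factor of neurons. WT mice carry 2 intact alleles, HET mice carry 1 allele with a CRISPR/Cas9 frameshift deletion in an early exon, and HOM mice carry that deletion on both alleles; according to the labels the mutant transcript is not degraded and the full-length protein is depleted. The study's methods give C57BL/6N mice for the making and first breeding of the line. Each genotype is a single library that pools 2 animals, sequenced in 4 runs, and the cells could not be assigned to animals here. A difference between genotypes is therefore a difference between 2 libraries: no test and no p-value is given, and intervals cover counting error only. The level of a gene in a cell type is its summed value divided by the summed total of those cells, per 1000000; the values are depth-corrected counts made by the authors.

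A dividing cell first loads the MCM helicase onto replication origins, and CDC6, CDC45 and the GINS complex help to load or activate it. Thymidylate synthase and ribonucleotide reductase supply nucleotides, and the PCNA clamp holds polymerases on the template while UHRF1 and HELLS act on the chromatin that is copied. CDK1 with cyclins A and B then drives mitosis, the kinetochore and the spindle move the chromosomes, and the anaphase promoting complex, with its activator CDC20 and its ubiquitin-conjugating enzyme UBE2C, marks cyclin B for destruction. In the newborn forebrain such cells are found in the germinal zones of the ganglionic eminences and the subventricular zone and among glial precursors. Cortical projection neurons have left the cycle and serve below as the background.

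Genes of the 2 lists differ in known promoter elements. Transcription of S genes is controlled through E2F sites, and that of G2/M genes through the cell cycle genes homology region (CHR) and CCAAT boxes. RefSeq start site windows on GRCm38.p6, from 250 bases before to 50 bases after the start, were found for 17 of the 19 S genes (19 windows) and 24 of the 29 G2/M genes (24 windows). The CHR letters TTTGAA, on either strand, lay in 19 of the 24 G2/M windows (79.2%), in 2 of the 19 S windows (10.5%) and in 17.9% of all 32851 windows. The E2F letters TTTCCCGC, TTTGGCGC or TTTCGCGC, on either strand, lay in 8 S windows (42.1%), in 2 G2/M windows (8.33%) and in 1.84% of all windows. CCAAT was in 83.3% of the G2/M windows, 68.4% of the S windows and 37.4% of all. CHR and CCAAT stood together in 70.8% of the G2/M windows, against 6.95% of all. These are matches of letters in the reference, not measured sites, and a window with no match says nothing about binding.

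Shown here are the 250 bases before the start of 3 G2/M genes and 3 S genes whose levels are given below for several cell types, 5′ to 3′ on the strand of the gene, with every CHR, CCAAT and E2F match in capitals. Neighbouring matches can overlap, as the paired E2F letters of Mcm6 and Mcm5 do.
Ccnb2 (chr9:70421555-70421804, minus strand), with a CHR match and 3 CCAAT boxes:
Ccnb2: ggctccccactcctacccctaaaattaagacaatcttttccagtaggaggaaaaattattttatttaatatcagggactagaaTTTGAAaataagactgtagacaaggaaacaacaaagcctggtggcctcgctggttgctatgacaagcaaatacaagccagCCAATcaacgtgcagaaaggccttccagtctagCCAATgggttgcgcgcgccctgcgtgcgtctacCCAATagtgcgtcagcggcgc
Ube2c (chr2:164769679-164769928, plus strand), with a CHR match and CCAAT boxes on both strands:
Ube2c: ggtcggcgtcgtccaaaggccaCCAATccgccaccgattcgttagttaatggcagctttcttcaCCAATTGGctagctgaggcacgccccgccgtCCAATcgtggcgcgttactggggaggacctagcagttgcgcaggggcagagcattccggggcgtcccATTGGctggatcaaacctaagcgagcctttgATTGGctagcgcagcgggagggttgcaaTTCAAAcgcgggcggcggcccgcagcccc
Cdc20 (chr4:118437344-118437593, minus strand), with a CHR match between 2 CCAAT boxes:
Cdc20: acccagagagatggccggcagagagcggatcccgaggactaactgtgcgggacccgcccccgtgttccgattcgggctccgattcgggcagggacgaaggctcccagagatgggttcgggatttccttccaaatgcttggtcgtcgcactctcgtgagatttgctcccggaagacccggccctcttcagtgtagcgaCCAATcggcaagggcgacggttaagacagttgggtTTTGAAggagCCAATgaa
Mcm6 (chr1:128359706-128359955, minus strand), with 3 E2F matches:
Mcm6: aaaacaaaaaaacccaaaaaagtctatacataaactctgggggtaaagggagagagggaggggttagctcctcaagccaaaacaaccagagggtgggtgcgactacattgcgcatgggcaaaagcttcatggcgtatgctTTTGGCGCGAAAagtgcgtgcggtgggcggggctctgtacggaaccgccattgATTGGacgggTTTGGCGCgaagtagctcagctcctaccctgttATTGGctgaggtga
Mcm5 (chr8:75109259-75109508, plus strand), with 2 E2F matches:
Mcm5: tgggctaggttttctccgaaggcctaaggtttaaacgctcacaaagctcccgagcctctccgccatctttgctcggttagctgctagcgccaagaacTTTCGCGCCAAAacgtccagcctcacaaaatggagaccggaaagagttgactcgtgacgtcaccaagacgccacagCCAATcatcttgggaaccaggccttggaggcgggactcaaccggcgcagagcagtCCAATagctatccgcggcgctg
Hells (chr19:38930740-38930989, plus strand), with 1 E2F match:
Hells: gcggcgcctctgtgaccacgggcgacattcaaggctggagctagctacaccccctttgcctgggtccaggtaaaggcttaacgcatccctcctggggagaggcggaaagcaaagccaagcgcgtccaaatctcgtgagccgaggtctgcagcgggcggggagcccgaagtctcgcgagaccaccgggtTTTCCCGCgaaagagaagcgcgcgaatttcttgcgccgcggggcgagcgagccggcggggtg

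Several facts bear on every genotype comparison. The names WT, HET and HOM follow the deposited cell table. Since a figure legend of the study lists these cell numbers under other genotypes, every library is named here by its label in that table. The libraries held 10503 WT, 12072 HET and 13688 HOM cells, with a median of 1045, 1099 and 1330 molecules per cell. Xist was above 0 in 20.2% of WT cells and in 2 HET cells and 1 HOM cell, while Y-linked transcripts were found in 5.74% of WT, 15.4% of HET and 15.2% of HOM cells. The WT pool thus held transcripts of both sexes and the mutant pools almost only those of males, so sex differed in part between WT and both mutants. The Myt1l level was 370 (WT), 450 (HET) and 710 (HOM), which checks no label because the mutant transcript persists. Of 35612 distinct cell barcodes, 645 occurred in 2 libraries and 3 in all 3.

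Ganglionic eminences cells stood apart from the rest. This type had 542 WT, 356 HET and 445 HOM cells, and its label was checked against 6 marker genes. Dlx1, a homeobox gene of ventral progenitors, had levels of 728, 597 and 451 in the WT, HET and HOM libraries. Nkx2-1, a gene of the medial eminence, was at 0, 4.39 and 0. The 6 markers summed to 1814, 1563 and 1268, and a Dlx gene was above 0 in 38.7%, 33.4% and 28.5% of the cells, so the markers fit the label in part of the cells and the authors' name is kept as a label. Markers of other cells were present too: all 7 astrocyte markers were above 0 in every library, with summed levels of 3217 (WT), 4604 (HET) and 5646 (HOM), above those of the type's own markers. The 6 oligodendrocyte lineage markers summed to 792, 1232 and 2355, with Cspg4 at 0 in HET only. Microglial markers summed to 16.2 to 26.3, with Tmem119 at 0, and endothelial markers to 13.8 to 21.96.

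In this type the S list summed to 5493 (WT), 5012 (HET) and 5274 (HOM), and the G2/M list to 14315, 15966 and 15490. The mean of the 4 layer neuron types was 388, 360 and 364 for the S list and 382, 344 and 314 for the G2/M list. Ganglionic eminences therefore exceeded layer neurons 14.2-, 13.9- and 14.5-fold for S genes and 37.5-, 46.3- and 49.3-fold for G2/M genes. Both lists together, without the D cyclins, made up 1.98 to 2.10% of all values in these cells and 0.0543 to 0.0945% in the layer neuron types. Cell types were assigned from expression of the same cells, so these differences between types are a description.

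**Figure D1:**
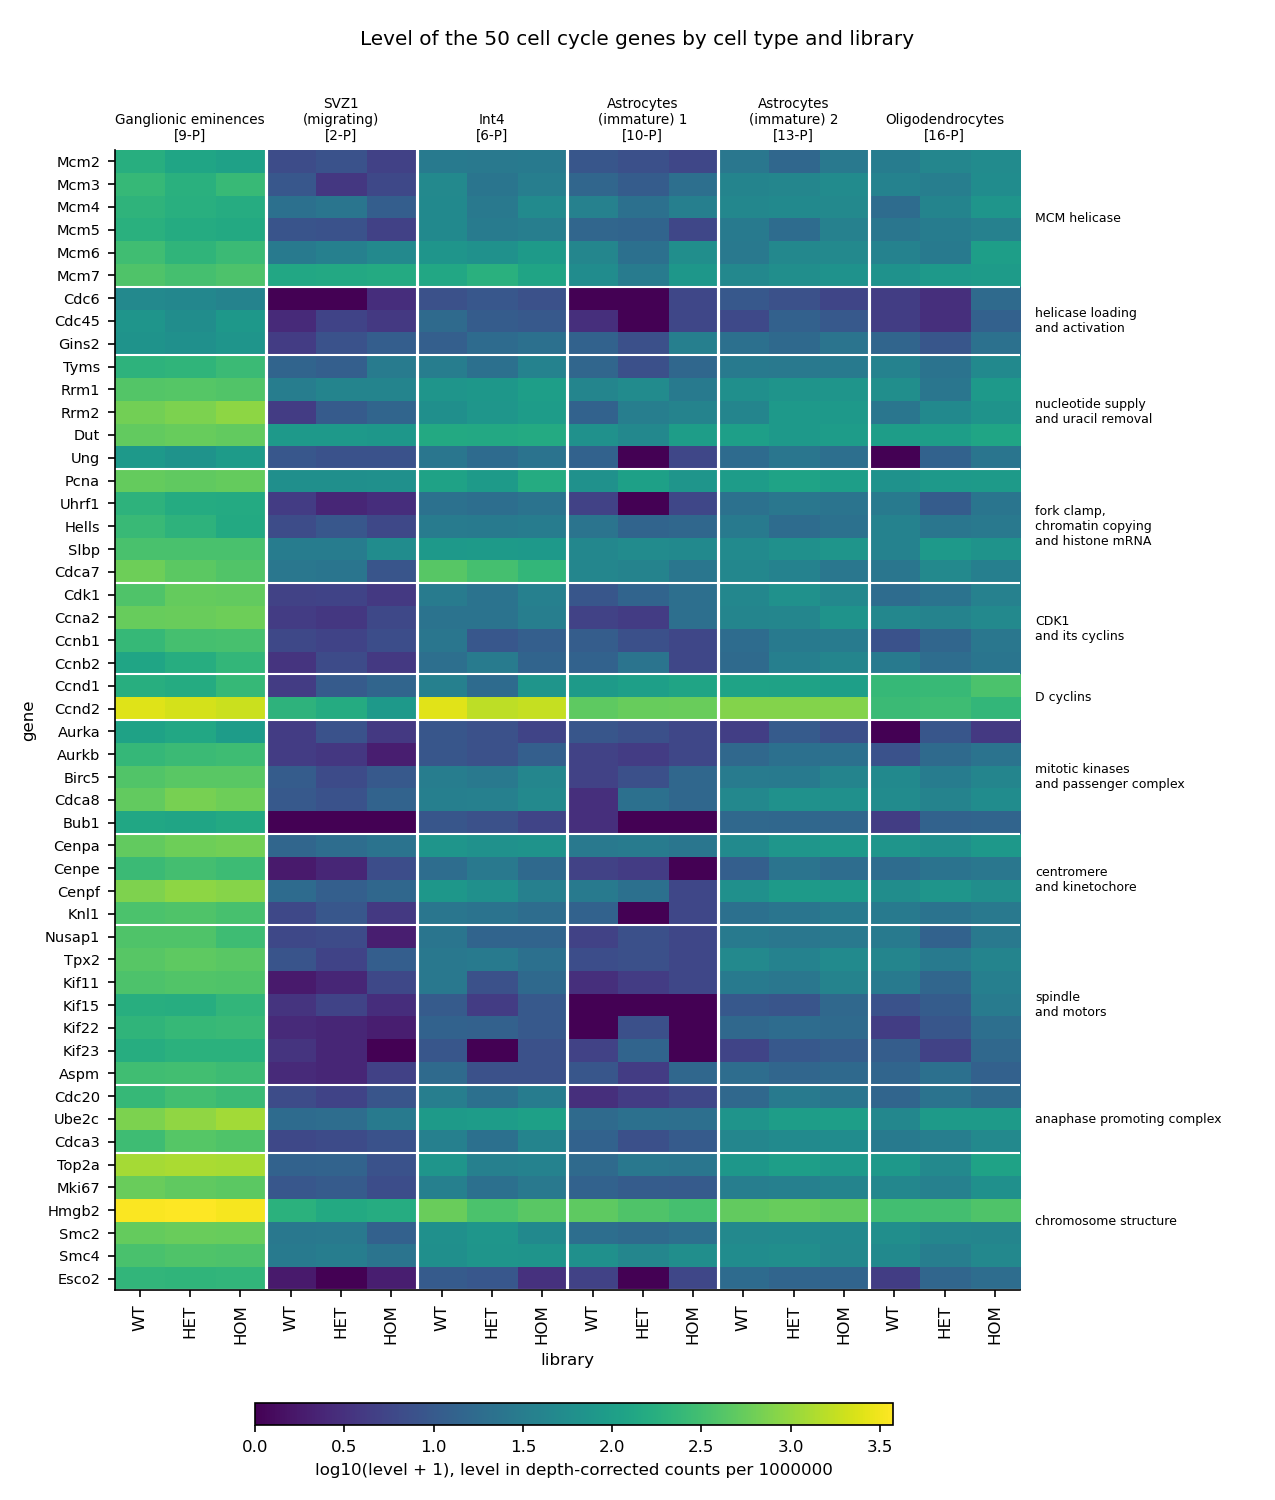
Level of each of the 50 genes (rows, by role) in 6 cell types and 3 libraries (columns), as log10(level + 1) with the level in depth-corrected counts per 1000000. The 3 columns of Ganglionic eminences are the brightest for all genes but Ccnd1, Ccnd2 and Cdca7; Ccnd2 and Cdca7 are also bright in Int4.

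The excess over layer neurons was seen gene by gene. Among 18 types that each library held 100 or more cells of, Ganglionic eminences had the highest mean level for all 19 S genes and all 29 G2/M genes, and for 47 of the 50 genes every one of its libraries lay above every library of every other type. The 3 exceptions were Ccnd1, Ccnd2 and Cdca7. The ratio to layer neurons had a median of 18.5 over the S list, from 5.32 for Mcm7 to 104 for Cdc6. Over the G2/M list the median was 67.6, from 23.0 for Smc4, a condensin subunit, to 149 for Aspm, a spindle pole protein.

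Among the helicase genes, Mcm7 had levels of 380 (WT), 332 (HET) and 373 (HOM), and Mcm6 had 301, 213 and 271. For both, the HET library was lowest. Cdc45, which joins the active helicase, had 70.9, 54.9 and 77.8, and the GINS subunit Gins2 had 67.9, 61.5 and 72.6, again with HET lowest. Among genes of nucleotide supply, the reductase subunit Rrm2 had 635, 742 and 916, and Dut, which removes dUTP, had 518, 542 and 518. The clamp Pcna had 530, 492 and 524. Cdca7, a partner of HELLS, had 613, 474 and 396, the WT library being highest.

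Among the G2/M genes, Cdk1 had levels of 381 (WT), 527 (HET) and 522 (HOM), and Ccna2, cyclin A2, had 544, 562 and 610. Cdca8 (borealin), of the chromosomal passenger complex, had 520, 676 and 612, and Birc5 (survivin), of the same complex, had 394, 452 and 451. For these 4 genes the WT library was lowest. The kinetochore gene Cenpf had 756, 920 and 836, and the centromeric histone Cenpa had 507, 602 and 641. Among spindle genes, Tpx2 had 433, 476 and 455, and the kinesin Kif11 had 375, 395 and 380, a narrow spread. Ube2c had 727, 942 and 1192, and Cdca3, a trigger of mitotic entry, had 289, 419 and 391. Hmgb2, a chromatin protein found beyond dividing cells, had 3527, 3710 and 3318, and the topoisomerase Top2a had 1235, 1302 and 1249.

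**Figure D2:**
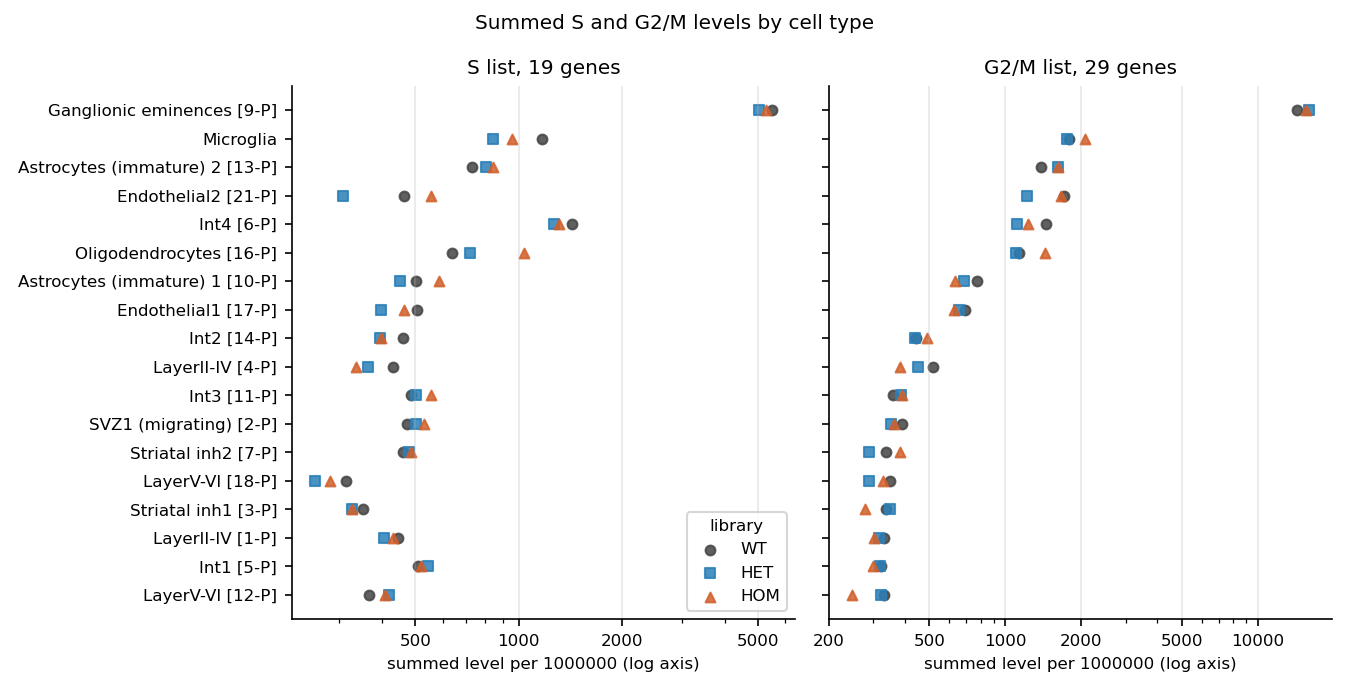
Summed level of the S list (left) and the G2/M list (right) on a log axis, per 1000000, in 18 types of 100 or more cells per library; each point is 1 library. Ganglionic eminences lie at 5012 to 5493 and 14315 to 15966, to the right of all other types.

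Below Ganglionic eminences the order of cell types differed between the lists. For the S list Int4, an interneuron type with Dlx and Sp8 expression, came next with 1427, 1266 and 1309 in the WT, HET and HOM libraries. For the G2/M list microglia came next with 1793, 1759 and 2066. Astrocytes (immature) 2 had G2/M sums of 1383, 1618 and 1614, Endothelial2 had 1710, 1217 and 1653, Int4 had 1448, 1113 and 1234 and oligodendrocytes had 1132, 1098 and 1438; these 4 types overlapped over libraries and cannot be ranked. Astrocytes (immature) 1 had lower sums, 773, 688 and 628. The SVZ1 (migrating) type, named for the germinal zone, had G2/M sums of 388, 353 and 361, near the layer neurons, and S sums of 472, 500 and 530. Its own 5 markers in the matrix summed to 1438, 1459 and 1325 there, while its 6 layer neuron markers summed to 2692, 2735 and 3012.

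Single cells were then scored by how many list members were above 0. At least 2 G2/M genes were above 0 in 82.7% of WT Ganglionic eminences cells (448 of 542, exact Clopper-Pearson 95% interval 79.2 to 85.8), in 92.4% of HET cells (329 of 356, 89.2 to 94.9) and in 90.8% of HOM cells (404 of 445, 87.7 to 93.3). The WT interval did not overlap those of the mutants. In the 4 layer neuron types, which should lack these genes, the share was 3.30 to 5.71% over types and libraries. At least 2 S genes were above 0 in 78.4% of WT, 74.2% of HET and 78.7% of HOM cells, with overlapping intervals, against 3.09 to 10.2% in layer neurons. The median depth of Ganglionic eminences cells was 3544.5, 4031.5 and 6050 molecules. Among cells with 3000 to 6000 molecules the G2/M shares were 80.0% of 105 WT, 91.2% of 57 HET and 82.5% of 80 HOM cells, so the HOM share lay near WT there. The raw molecules per gene were not used here, so cells could not be thinned to 1 depth.

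The cut at 2 genes divides a range. In Ganglionic eminences 69 WT, 20 HET and 28 HOM cells had exactly 1 G2/M gene above 0, and 34, 29 and 29 had exactly 2. By both lists together, 64.4% of WT, 68.0% of HET and 70.6% of HOM cells had at least 2 genes of each list. Cells with at least 2 S genes and fewer than 2 G2/M genes were 14.02% of WT (76 cells, interval 11.2 to 17.2), 6.18% of HET (22 cells, 3.91 to 9.21) and 8.09% of HOM (36 cells, 5.73 to 11.0), so the WT interval lay above both. Cells with the G2/M list alone were 18.3%, 24.4% and 20.2%, and cells with neither were 3.32%, 1.40% and 1.12%. Cells with the G2/M list alone were shallow, with a median of 1012, 895 and 2449 molecules, against 4816, 5582 and 6584 in cells with both lists.

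**Figure D3:**
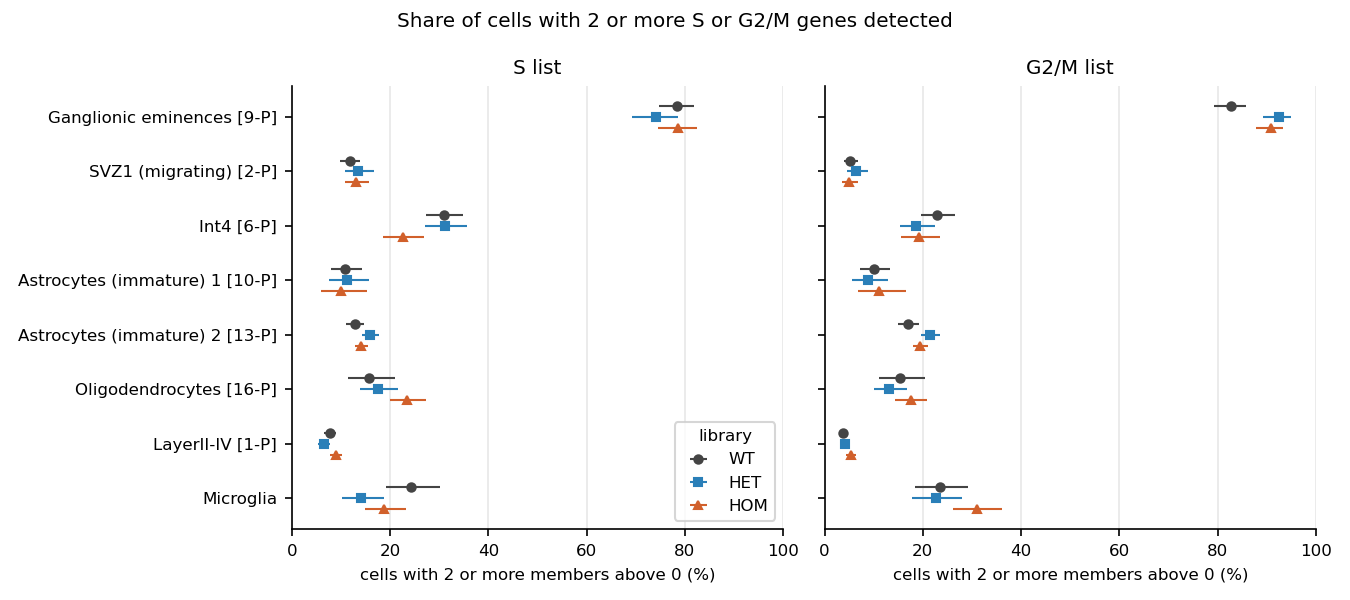
Share of cells with 2 or more S genes (left) or G2/M genes (right) above 0, by cell type and library; points are shares and bars are exact Clopper-Pearson 95% intervals (counting error only). Ganglionic eminences lie at 74.2 to 92.4% and the layer II-IV neurons at 3.77 to 8.97%.

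In other types smaller shares of cells had 2 or more list genes above 0, which is not a count of dividing cells. In Int4 the G2/M share was 22.9% in WT (interval 19.6 to 26.5), 18.7% in HET (15.3 to 22.4) and 19.2% in HOM (15.5 to 23.5). At 6 or more G2/M genes it was 22 of 611 WT, 18 of 477 HET and 7 of 395 HOM cells. Hmgb2, found beyond dividing cells, made up 38.6%, 32.7% and 37.1% of the Int4 G2/M sum. The Int4 S share was 30.9%, 31.2% and 22.5%, with the HOM interval (18.5 to 27.0) below the WT interval (27.3 to 34.8). The HOM library had the shallowest Int4 cells, with a median of 913 molecules against 1196 in WT and 1527 in HET, and among cells with 3000 to 6000 molecules the S shares were 33.5%, 37.7% and 29.7%. The log2 ratio of the HOM to the WT S share was -0.46 over all Int4 cells, 0.050 in those with at least 2000 molecules, -0.14 in those with Y-linked transcripts and 0.55 when 6 genes were asked for, so its direction depended on depth and on the number of genes. In Astrocytes (immature) 2 the G2/M share was 17% for WT (15 to 19.2), 21.5% for HET (19.6 to 23.4) and 19.4% for HOM (17.9 to 21.01). In oligodendrocytes it was 15.4%, 13.1% and 17.5%, though at 2000 molecules or more the HET share was above WT (log2 ratio 0.19 in place of -0.23). In SVZ1 (migrating) it was 5.21%, 6.42% and 5.05%, at the upper end of the layer neuron range and above it in HET. SVZ1 cells had a median of 3889, 3915 and 4077.5 molecules, against 741 to 3475.5 in the layer neuron types.

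With a stricter count, the cells of a library with 6 or more G2/M genes could be followed to their types. The WT library held 455 such cells, of which 73.2% were Ganglionic eminences and 10.3% were Astrocytes (immature) 2. The HET library held 415, with 56.6% and 24.8%, and the HOM library held 556, with 55.4% and 25.9%. The size of the types themselves moved in the same direction: Ganglionic eminences were 5.16% of WT, 2.95% of HET and 3.25% of HOM cells, and Astrocytes (immature) 2 were 12.4%, 15.4% and 18.6%. Within Astrocytes (immature) 2, cells with 6 or more G2/M genes were 3.62% of WT (47 cells, interval 2.67 to 4.78), 5.54% of HET (103 cells, 4.54 to 6.68) and 5.65% of HOM (144 cells, 4.78 to 6.62). These astrocyte cells kept an astrocyte marker sum of 12074, 15130 and 17193 and had a Ganglionic eminences marker sum of only 110, 149 and 37.6. Their median depth was 970, 1453 and 2481 molecules (WT, HET, HOM), and the part of depth in the share was not tested. A doublet caller was not run, and a dividing cell joined to an astrocyte would have both sets of genes.

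The S and G2/M genes separated within Ganglionic eminences. Across single cells, on log2(value + 1), the mean Pearson correlation between pairs of S genes was 0.23, 0.22 and 0.23 in the WT, HET and HOM libraries, and between pairs of G2/M genes 0.33, 0.35 and 0.33. Between an S and a G2/M gene it was -0.03, -0.03 and -0.07, over 542, 356 and 445 cells. The cells share a library and a depth, and depth correlated with both list sums (r from 0.37 to 0.51). The strongest pair in each library was Cenpf with Ube2c, with r of 0.67 in all 3. Esco2, a cohesin acetyltransferase of S phase that stands in the G2/M list, had a mean r of 0.11 to 0.14 with S genes and 0.12 to 0.22 with G2/M genes, where Top2a had 0.00 to 0.04 and 0.37 to 0.39.

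The D cyclins, which couple growth signals to the G1 kinases CDK4 and CDK6, differed between marker subsets of Ganglionic eminences. Ccnd2 had levels of 2465, 2174 and 1908 in Ganglionic eminences and 2531, 1615 and 1784 in Int4, and the libraries of the 2 types overlapped. Ccnd1 had 171, 156 and 247 in Ganglionic eminences, 248.8, 253 and 357 in oligodendrocytes and 296, 354 and 380 in Endothelial1. Cells of Ganglionic eminences with Dlx1, Dlx2 or Dlx5 above 0 (210 WT, 119 HET and 127 HOM) had Ccnd2 levels of 4033, 4234 and 3924 and Ccnd1 levels of 76.5, 80.0 and 87.6. Cells with Olig1, Olig2, Pdgfra or Sox10 above 0 (177, 154 and 269) had Ccnd2 levels of 1489, 1111 and 1192 and Ccnd1 levels of 293, 219 and 336. In every library Ccnd2 was higher in the Dlx cells and Ccnd1 in the Olig cells; a cell can be in both sets.

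The share of these subsets differed between libraries. Dlx cells were 38.7% of Ganglionic eminences in WT (interval 34.6 to 43.0), 33.4% in HET (28.5 to 38.6) and 28.5% in HOM (24.4 to 33.0). Olig cells were 32.7% in WT (28.7 to 36.8), 43.3% in HET (38.0 to 48.6) and 60.4% in HOM (55.7 to 65.0), and none of these intervals overlapped. The S list summed to 7111, 6750 and 7328 in Dlx cells and to 4785, 4429 and 4501 in Olig cells, and the G2/M list to 18134, 20897 and 18241 and to 11611, 13675 and 14607. Median depth differed most among Olig cells, at 2738, 3567.5 and 6504 molecules, and its part in their share was not tested. The lower Ccnd2 of the whole type in HOM was not seen within Dlx cells, where the log2 ratio to WT was -0.04 against -0.37 over the whole type, but it was seen within Olig cells (-0.32). In HET the ratios were 0.07 in Dlx cells and -0.42 in Olig cells.

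**Figure D4:**
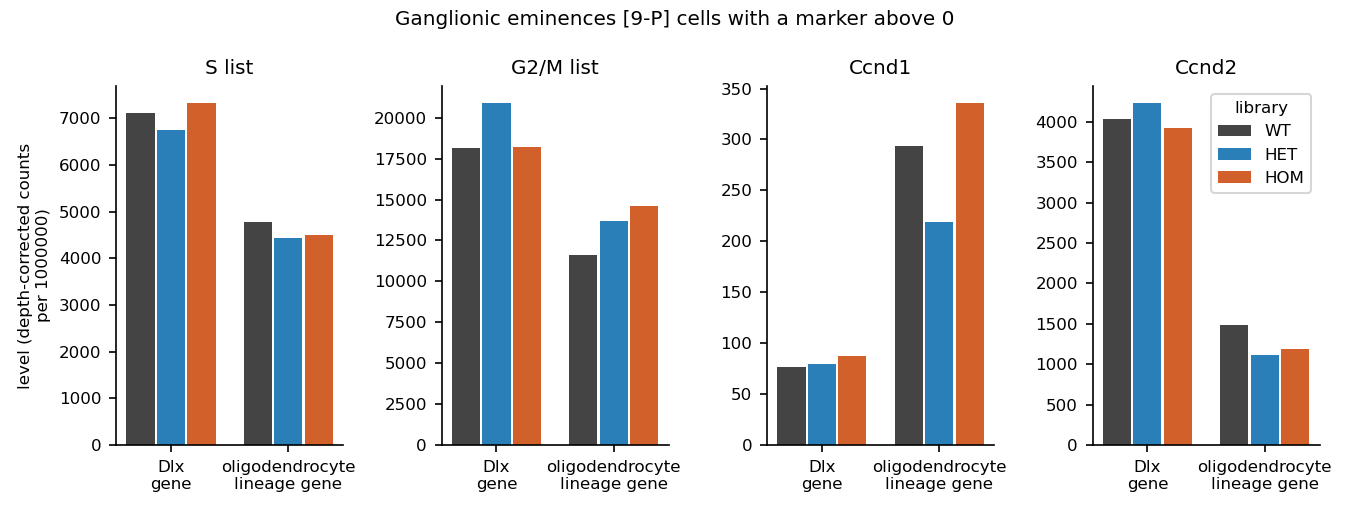
Levels per 1000000 of the S list, the G2/M list, Ccnd1 and Ccnd2 in Ganglionic eminences cells with a Dlx gene above 0 and in those with an oligodendrocyte lineage gene above 0; each bar is 1 library, with no replicate. Ccnd2 is 3924 to 4234 in the first and 1111 to 1489 in the second, and Ccnd1 is 76.5 to 87.6 and 219 to 336.

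Genotypes were compared by the log2 ratio of levels for genes whose summed value over both libraries was at least 50, with a size of 0.5 as the mark. HET and HOM are compared with the same WT library, so their ratios are given side by side. In Ganglionic eminences of HET against WT all 50 genes could be measured, and 1 was higher and 1 lower by 0.5 or more, beside 7.69% and 11.1% of all 3886 genes measured. Of the S genes 4 of 19 had ratios above 0, with a median of -0.25, and of the G2/M genes 25 of 29, with a median of 0.16; of all genes 49.9% were above 0, with a median of 0.00. Most S genes thus lay below 0 and most G2/M genes above it, nearly all within the mark. In bulk sums of this kind, fewer cells in a phase and less RNA per cell cannot be told apart.

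By role, all 6 MCM genes were below 0 in HET, from -0.50 (Mcm6) to -0.20 (Mcm7), as were all 3 genes of helicase loading (-0.37 to -0.11) and all 5 of the fork and chromatin group (-0.38 to -0.02). Of the 5 nucleotide genes 4 were above 0, to 0.22 for Rrm2. CDK1 and its 3 cyclins were above 0, with Cdk1 at 0.47, Ccnb1 at 0.44, Ccnb2 at 0.41 and Ccna2 at 0.05. Ube2c and Cdc20, which act with the anaphase promoting complex, were above 0 too, at 0.37 and 0.34. Cdca3, the trigger of mitotic entry that was grouped with them, was at 0.53. Spindle genes lay close to 0, from -0.04 to 0.19.

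In HOM against WT, 4 of the 50 genes were higher and 3 lower by 0.5 or more, beside 9.46% and 22.1% of all 4016 genes measured. Ccnb2 had 232 against 124 (log2 ratio 0.90), Ube2c 0.71, Rrm2 0.53 and Ccnd1 0.53. Hells, a chromatin remodeller of replicating DNA, had 149 against 260 (-0.81), and Mcm2 (-0.64) and Cdca7 (-0.63) were lower too. The S median was -0.02, with 8 of 19 above 0, and turned to 0.06 under median-of-ratios scaling and 0.03 with the mean per cell. The G2/M median was 0.15, with 22 of 29 above 0, against 43.5% of all genes and a median of -0.09. No member passed 0.5 in the same direction in both mutants, where 112 of 3765 genes were higher and 266 lower in both.

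**Figure D5:**
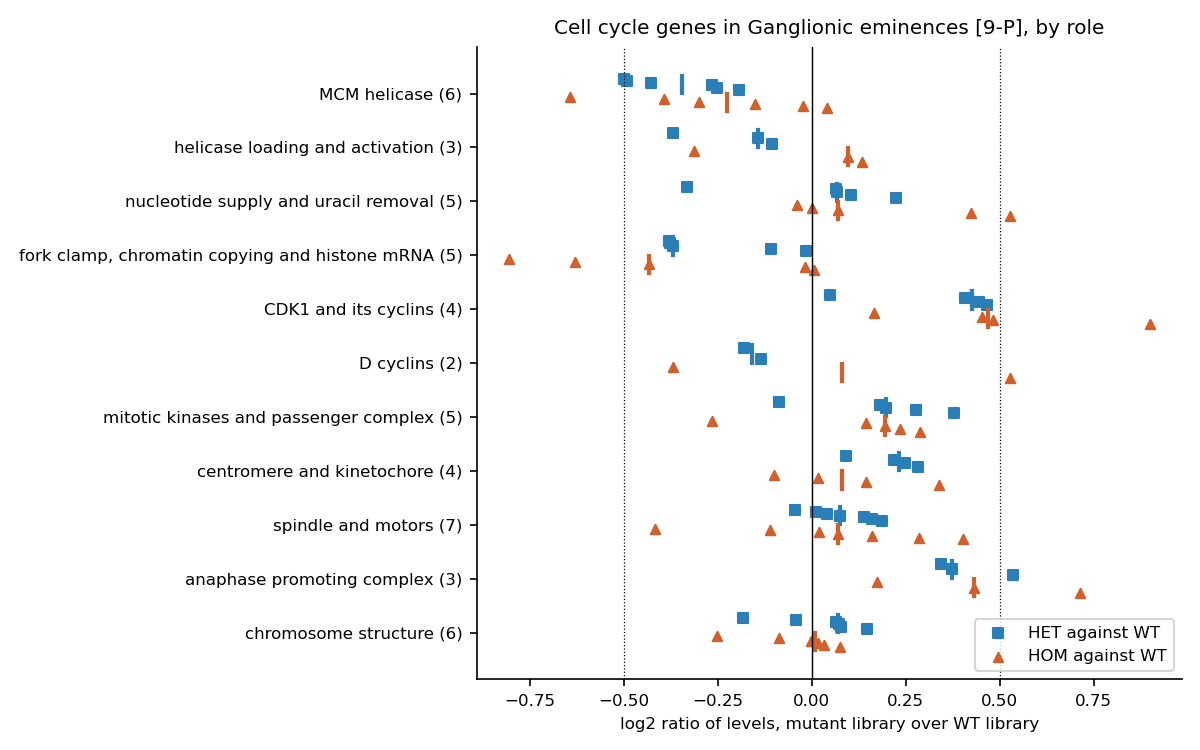
Log2 ratio of levels in Ganglionic eminences, mutant library over WT library, for the 50 genes by role (number of genes in brackets); squares are HET, triangles HOM, bars the median of a role, and dotted lines 0.5 either way. MCM genes lie from -0.50 to -0.20 in HET and CDK1 and its cyclins lie above 0 in both mutants.

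Within the marker subsets of HET, 27 of 29 G2/M genes were above 0 in Dlx cells (median 0.18) and 25 of 27 measured in Olig cells (median 0.29). Of the S genes 5 of 15 measured were above 0 in each subset (medians -0.10 and -0.14). In HOM 12 of 29 G2/M genes were above 0 in Dlx cells (median -0.02) and 26 of 28 in Olig cells (median 0.42). Of the S genes 7 of 15 and 3 of 16 were (medians -0.01 and -0.11). The share over all genes was not computed within the subsets, so these counts have no background. Ccnb2 was higher in both subsets of HOM, with 193 against 117 in Dlx cells (sums of 33 and 32) and 267 against 114 in Olig cells (sums of 94 and 26). Hells was lower in both, with 152 against 317 and 125 against 245. Mcm2 differed by subset, with 181 against 182 in Dlx cells and 93.9 against 193 in Olig cells. Median depth was higher in HET and higher still in HOM, and among Ganglionic eminences cells with 3000 to 6000 molecules the HET S median was 0.01 over the 9 genes that could still be measured.

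HOM and HET, the 2 libraries with almost no Xist, were also compared in Ganglionic eminences. Of 49 genes measured, Ccnd1 (247 against 156, 0.66) and Cdc45 (0.50) were higher in HOM and the kinase Aurka (93.3 against 136, -0.54) was lower, beside 6.71% and 12.5% of all 3340 genes. The medians were 0.06 for S and -0.06 for G2/M genes.

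In Int4, 18 of the 50 genes could be measured in HET against WT, and 5 of them were lower and none higher by 0.5 or more, beside 7.69% and 9.27% of 4941 genes. In HOM against WT 6 of 20 were lower and 2 higher, beside 24.3% and 10.5% of 4212 genes, with a median over all genes of -0.13. In cells with at least 2000 molecules, however, the S medians turned from -0.11 to 0.39 in HET, over 7 genes, and moved from 0.05 to 0.41 in HOM, over 5, and the HOM G2/M median turned from -0.29 to 0.22. Top2a had levels of 72.0 (WT), 35.0 (HET) and 37.5 (HOM), from 35, 16 and 12 cells, so both mutant libraries lay below WT. Mcm5 had 48.9, 30.03 and 33.0. Ccnd2 had 2531, 1615 and 1784, with ratios of -0.65 and -0.50. These 3 genes passed 0.5 in both mutants, against 212 lower and 111 higher of 4180 genes. Of them, Top2a and Mcm5 reached the minimum sum of 50 only through their higher WT values. Cdca7 had 433, 327 and 227, and Cenpf 76.0, 61.7 and 35.2 (-1.11 in HOM). Ccnd1 had 35.3, 16.7 and 72.7 (1.04 in HOM), from sums of 26 and 33. Mcm7 had the highest ratio in HET (0.41). Between HOM and HET 4 of 15 genes were lower, with Cenpf at -0.81, and Pcna alone was higher (0.82), beside 20.8% and 6.14% of 3808 genes.

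The makeup of Int4 moved with these values. Its 8 markers, all above 0, summed to 5160 (WT), 4368 (HET) and 3703 (HOM), the 7 astrocyte markers to 1138, 1508 and 2230, and 3 haemoglobin genes to 831, 672 and 1384. Their part in the result was not tested. Ccnd2 was above 0 in 400 of 611 WT, 277 of 477 HET and 181 of 395 HOM cells.

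In Astrocytes (immature) 2 more members were higher than lower. Of 45 genes measured in HET against WT, 9 were higher and 3 lower by 0.5 or more, beside 7.92% and 10.6% of 7893 genes, and of 46 in HOM against WT 13 were higher and 2 lower, beside 7.27% and 18.4% of 8321 genes. The G2/M medians were 0.21 and 0.35 and the S medians 0.14 and 0.19, against 0.00 and -0.10 over all genes. In cells with at least 2000 molecules the G2/M medians were 0.62 in HET and 1.13 in HOM, and the HOM S median 0.54. Ccnb2 had levels of 15.97 (WT), 33.9 (HET) and 40.8 (HOM), Ccnb1 17.4, 28.7 and 29.8, and Cdc20 15.2, 27.2 and 23.8. The kinetochore motor Cenpe had 10.9, 22.5 and 18.1, and Cenpa 50.1, 73.1 and 83.7. Cenpe reached the minimum sum of 50 only through its higher values in the mutant libraries. Among S genes Rrm2 had 41.4, 82.6 and 81.5 and Mcm6 26.9, 45.8 and 47.2, while Hells had 29.04, 17.2 and 20.2. These 7 higher genes and 1 lower gene are those past 0.5 in both mutants, where 267 of 7778 genes were higher and 548 lower in both. All of these levels are far below those of Ganglionic eminences.

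Within those astrocyte cells that had 6 or more members above 0, the G2/M medians against WT were -0.10 in HET and 0.01 in HOM. These cells were selected by the same genes, so nothing is read from the medians beyond their values. Over the whole type again, Mcm2 was lowest in HET (14.3 against 25.4, -0.83) and Cdca7 in HOM (24.8 against 43.6, -0.81). Mcm5 had 28.3, 17.2 and 36.2, so HOM exceeded HET by 1.07, the highest ratio of that pair of libraries, in which the share of genes higher by 0.5 was 3.7% of 8767 and that of members 7 of 47; 1 member, Cdca7, was lower, beside 10.3% of genes.

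In oligodendrocytes few genes could be measured, and some high ratios rested on small sums. Of 10 genes measured in HET against WT, 2 were higher and none lower, beside 8.95% and 9.93% of 3152 genes; of 17 in HOM against WT, 7 were higher and none lower, beside 11.3% and 14.5% of 3640 genes. Slbp, which binds histone mRNA, had levels of 37.5 (WT), 80.4 (HET) and 66.7 (HOM), and Ube2c 44.3, 88.5 and 86.0, both past 0.5 in both mutants. Mcm4 had 17.04, 40.2 and 71.1 (2.06 in HOM, from sums of 5 and 48), and Mcm6 had 37.5, 28.1 and 101. Rrm2 had 23.9 in WT and 68.2 in HOM (1.51). Ccnd1 was at 357 in HOM and 248.8 in WT (0.52), on sums of 241 and 73, and Cenpa was the lowest ratio in HET (-0.30). Between HOM and HET 6 of 20 genes were higher and none lower by 0.5, beside 6.2% and 9.87% of 4257 genes, with Mcm6 at 1.84 and Rrm1 at 1.76. Cells were deeper in HOM, with a median of 2260 molecules against 1282 in WT and 1382.5 in HET, and the astrocyte marker sum was 3484, 4610 and 5715, with 6 of 7 above 0 in every library. Their part in the result was not tested.

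In SVZ1 (migrating) only 10 and 9 genes could be measured against WT. None passed 0.5 in HET, beside 5.66% and 9.82% of 5812 genes, where Ccnd2 was lowest (-0.38) and Rrm1 highest (0.33). In HOM Mcm6 (0.68) and Slbp (0.83) were higher and Ccnd2 lower, beside 9.35% and 18.5% of 6206 genes. Ccnd2 had 202 in WT, 156 in HET and 84.6 in HOM, above 0 in 175 of 979, 75 of 561 and 65 of 792 cells. In Astrocytes (immature) 1 only 4 genes could be measured, of which 1, Pcna, was higher and none lower in HET (0.73), beside 7.26% and 12.7% of all genes. In HOM 1, Dut, was higher (0.61) and 1, Hmgb2, lower (-0.54), beside 11.3% and 20.3%.

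Other cell cycle genes were also higher in Ganglionic eminences than in layer neurons. Of 77 further S and G2/M genes, all 77 were more than 2 times higher in Ganglionic eminences than in layer neurons, with a median ratio of 21.8, while of 12 genes of cell cycle exit 6 were, with a median of 2.03. The 4 with the highest levels were the tubulin Tubb4b (665, 944 and 933), the lamin Lmnb1 (737, 591 and 766), the mitotic kinase Pbk (622, 608 and 546) and the spindle midzone protein Prc1 (502, 617 and 494). Between genotypes, 35 of 72 measured were above 0 in HET (median -0.01), beside 49.9% of all genes. In HOM 29 of 73 were (median -0.13), beside 43.5%, in a list that mixes S and G2/M genes. By 0.5 or more, 5 were higher and 5 lower in HET, beside 7.69% and 11.1% of all genes. In HOM 3 were higher and 8 lower, beside 9.46% and 22.1%. The phosphatase Cdc25c (0.70 and 0.60) and the kinase Cit (0.62 and 0.52) were higher in both mutants. The histone chaperone subunit Chaf1a (-0.57 and -0.68) and the repressor E2f7 (-0.79 and -1.67) were lower in both. Of all 3765 genes measured in both, 112 were higher and 266 lower in both. The levels of E2f7 and Cit were low (60.6 and 39.9 in WT), so their ratios rest on small sums.

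Genes outside both lists were ranked by their likeness to the summed G2/M level, as Pearson r of log2(level + 10) over 56 points of cell type and library, which share libraries and depth. Among the first 15 were Pclaf (0.98), Knstrn (0.94), Hist1h1b (0.93), Cep55 (0.91), Dlgap5 (0.91), Shcbp1 (0.91), H2afz (0.89), Psrc1 (0.89), Fbxo5 (0.89), Sgo2a (0.89), Nde1 (0.88), Neil3 (0.88), Hmmr (0.88) and Melk (0.87). Pclaf, a PCNA-binding protein, had levels of 1001, 1078 and 1046 in Ganglionic eminences. Of the first 50 genes of the whole ranking 16 were of the other cell cycle list; a further 27 were members, whose place is no finding, as the G2/M members make up the sum.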

How the data were processed

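Single-cell RNA of methanol-fixed cells was profiled by the study with a 10x 5′ kit. Per the labels, reads were aligned to mm10 with Cell Ranger 4.0.0 and handled in Seurat 4.0. The authors filtered cells by genes detected and mitochondrial share, removed blood cells and transferred cell type names from a reference with a probability. Whether doublets were removed before deposit is unknown here, and no doublet caller was applied. The deposited matrix holds whole-number values that are not raw counts: their total was 825 to 1952 per cell, while the counts of molecules per cell in the authors' cell table ran from 499 to 17602, and the 2 were equal in 617 of 36263 cells. It was therefore treated as a depth-corrected score deposited by the authors, and no count model was used. The cell table, deposited by the authors, also holds the mitochondrial percent and the cell type probability as a fraction. The authors' tables of differential expression (fold changes, p-values and shares of cells) were not used.

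Values were summed per cell type and library and divided by the total, per 1000000. Ratios needed a summed value of at least 50 over both libraries and at least 100 cells in each. A gene with a low level can reach that sum only through the library where it is high. Counts of genes past 0.5 therefore depend in part on this filter. Shares carry exact Clopper-Pearson 95% intervals. With 1 library per genotype no test was made. Cell types under 100 cells in any library were left out of rankings, which left 18 of 21. The 12 samples are 4 runs of 3 libraries and were used as 3. The members, gene lists and marker subsets were chosen with earlier results of these data known. Values are printed for the 2 members of each role with the highest mean level in Ganglionic eminences, for the D cyclins, for members past 0.5 in both mutants, and for the lowest and highest ratio of a cell type; the genes shown by sequence and those traced in the marker subsets were chosen after their values were seen. Promoter windows are RefSeq sequences of GRCm38.p6. Alternatives changed the scaling, the minimum sum, the cells and the number of genes per cell. The ratio step recovered changes planted in simulated counts drawn from a single profile. That checks the arithmetic only, as the deposited values are not raw counts and the libraries differ in depth. Python 3.11.15 with numpy 2.4.6, pandas 2.3.3 and scipy 1.17.1 was used. Some genes among the markers and the genes most like the G2/M list are not reported here.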

Additional observations from a re-analysis of the deposited data

Results flagged for a closer look

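For 2 genes the mutant library moved past 0.5 on the log2 scale in opposite directions in 2 cell types, which was not tested since each genotype has 1 library. Mcm6 in HET against WT was 0.77 in Astrocytes (immature) 2 (sums of 96 and 37) and -0.50 in Ganglionic eminences (sums of 97 and 204). Top2a in HOM against WT was 0.50 in oligodendrocytes (sums of 75 and 23) and -0.94 in Int4 (sums of 17 and 53).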

How the results depend on the processing

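No paired analysis was possible because the replicate numbers in the labels are sequencing runs of 1 library per genotype, and no comparison rests on a test. For the same reason no replicate could be left out. Of 602 values recomputed for 85 results under other settings, 534 stayed within the tolerance (0.3 for a log2 value, where no value of 0.1 or more changed sign, or 1.5 times for a count), 67 moved further and 1 reversed from 0.5 or more in size; the causes were not tested. The sign changed in 38, of which 20 had a reported value under 0.1 in size, 17 one of 0.1 to 0.5 and 1 one of 0.5 or more. No value left the tolerance under median-of-ratios scaling, a total without technical genes, the mean per cell or a minimum sum of 20 or 200. A minimum sum cannot change the ratio of a single gene, so such values, counted among the 534, could not move under it. Counts of genes past 0.5 were not recomputed. Of the 15 genes most like the G2/M list, 11 remained with an offset of 100 and 9 with an offset of 1.

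In cells with at least 2000 molecules the Int4 S medians were 0.39 in HET and 0.41 in HOM against WT, on 7 and 5 genes, and the HOM G2/M median 0.22. In Astrocytes (immature) 2 the medians against WT were 0.62 for G2/M in HET, 0.54 for S and 1.13 for G2/M in HOM, and against HET 0.70 for S and 0.42 for G2/M. In Ganglionic eminences 5 S genes of HOM were above WT, beside 8 of 19 in all cells of the type. Fewer genes can be measured in a part of the cells, and no share over all genes was computed there. The log2 excess of Ganglionic eminences over layer neurons was 4.37 for S and 6.53 for G2/M in these cells, and 4.28 and 5.90 without the 6 broadly expressed genes Hmgb2, Smc2, Smc4, Slbp, Dut and Pcna. At a cell type probability of at least 0.9 the HOM S median of Int4 was 0.38. In Ganglionic eminences cells with 3000 to 6000 molecules the S median was 0.0053 for HET against WT and -0.31 for HOM against HET. In cells with 6 or more members above 0, 2 S genes in HET and 5 in HOM were above WT in Ganglionic eminences, and 14 G2/M genes in HOM (median -3.35e-05). In all cells of the type these were 4 and 8 of 19 S genes and 22 of 29 G2/M genes. The counts in the selected cells have no share over all genes beside them, so nothing is read from them. The G2/M medians of Astrocytes (immature) 2 were -0.10 in HET and 0.0098 in HOM.

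Shares against WT are given as log2 ratios. In oligodendrocytes the S share was -0.028 (HET) and 0.19 (HOM) with 1 gene or more, 1.06 (HOM) with 3 and 1.51 (HOM) with 6; 0.51 and 0.96 at 2000 molecules or more; -0.59 and -0.33 at 1000 to 2000 molecules; and -0.10 (HET) without the 6 broad genes. Their G2/M share was 0.14 (HET) and 0.81 (HOM) with 6 genes, 0.19 (HET) at 2000 molecules or more, -0.68 (HET) at 1000 to 2000 and 0.016 (HET) at a probability of at least 0.9. In Astrocytes (immature) 2 the HOM S share was 0.54 with 3 genes, 1.67 with 6, 0.60 at 2000 molecules or more, -0.22 at 1000 to 2000 and 0.68 at 3000 to 6000; the HET S share was 0.90 with 6 genes and -0.11 at 3000 to 6000 molecules, and the HOM G2/M share 0.64 with 6 genes. In Int4 the HOM S share was 0.55 with 6 genes, 0.050 at 2000 molecules or more, -0.15 at 1000 to 2000 and -0.14 among those with Y-linked transcripts. The Int4 G2/M share was 0.068 (HET) and -1.02 (HOM) with 6 genes, 0.12 (HOM) at 2000 molecules or more and -0.97 (HET) at 1000 to 2000. Depth limits the shares in all types, and small sums limit the ratios in oligodendrocytes, SVZ1 (migrating) and Astrocytes (immature) 1. In Astrocytes (immature) 2 they limit the ratios of genes with low levels, such as Cenpe, Cdc20, Ccnb2 and Ccnb1. The bands of 3000 to 6000 molecules, the count of 6 genes and the marker subsets were chosen after seeing the data.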

Other observations

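Cells with 6 or more G2/M genes were also found among microglia and oligodendrocytes. Microglia gave 14 of the 455 such cells in WT, 16 of 415 in HET and 27 of 556 in HOM, with a microglial marker sum of 8105 in the HET and 9814 in the HOM cells. Oligodendrocytes gave 9, 17 and 36, and these cells kept an oligodendrocyte lineage marker sum of 5520 in HET and 7354 in HOM with Ganglionic eminences markers at 180 and 175. Int4 gave 22, 18 and 7.

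Among genes of cell cycle exit in Ganglionic eminences, the CDK inhibitor Cdkn1b had levels of 295, 277 and 233 (WT, HET, HOM), and Cdkn2c had 105, 119 and 105. The antiproliferative gene Btg1 had 188, 158 and 149 there and 646, 639 and 357 in Int4. Other exit genes went the other way in Ganglionic eminences, where Btg2 had 126, 119 and 183 and Cdkn1c had 32.5, 35.1 and 69.1. In HOM against WT 4 of the 8 exit genes measured were above 0, beside 43.5% of all genes. By 0.5 or more, 2 were higher and 1 lower, beside 9.46% and 22.1%. In HET 1 of 6 was above 0, beside 49.9%.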
